A study of Mus musculus with 3 samples.

Results

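Lyve1, Folr2, Cbr2, Cd163, Maf and F13a1 are 6 genes that macrophages lying in connective tissue and around vessels are known to express. They were described here on 3 arrays of mouse peritoneal macrophages. The genes were found on the array by symbol, Lyve1 under its older symbol Xlkd1 through its RefSeq accession. They had 10 of the 41174 probes and were 6 of the 14564 genes with a probe above background. They were chosen with their values on these arrays known, so all their differences are a description and carry no test.

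The cells came from male Swiss albino mice aged 8 weeks, in groups of 10 animals. All of them, the controls included, were injected on day 0 with 125 µg lipopolysaccharide (LPS), a bacterial product used to draw macrophages into the peritoneal cavity. The controls then had 100 ng TPA, a phorbol ester, on day 4. The treated groups had 35 or 70 nmol of chromate, Cr(VI), together with the same TPA. The sample labels count these doses as Cr(VI), while the protocol counts them as potassium dichromate. Cells were washed out 4 days later into medium that held GM-CSF, a growth factor for macrophages. There was 1 array per group, and whether its RNA came from 1 animal or from a pool is not given in the sources used here. The question was what chromate on top of TPA did to the transcripts of these cells. The title also names lipoic acid, but none of the 3 samples of the series is labelled with it.

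Macrophages that stay in a tissue differ from those that arrive from blood in the receptors they carry. LYVE1 binds hyaluronan, a sugar polymer of the extracellular matrix, and is also carried by lymphatic endothelium. FOLR2 is the beta form of the folate receptor, CD163 takes up haptoglobin bound to haemoglobin, and F13A1 is the catalytic subunit of coagulation factor XIII, a transglutaminase that cross-links fibrin. CBR2 is a carbonyl reductase, known best from mouse lung, and MAF (c-Maf) is a basic leucine zipper transcription factor that macrophages of this kind depend on. Lyve1, Folr2, Cd163 and F13a1 therefore stand for surface or secreted products, Cbr2 for an enzyme and Maf for a regulator.

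Since Maf is itself among the 6 genes, the promoters of the others were searched for the MAF recognition element and for its core TGCTGA, on both strands. The full element is the core, then 1 or 2 bases of any kind, then its reverse complement TCAGCA, so each full element also holds the core. RefSeq windows (build GRCm38.p6, 250 bases before to 50 after a gene's start) were at hand for 4 of the 6 genes, in 6 windows, with 2 starts each for Folr2 and F13a1. No window held the full element with either spacing, and 2 of 32851 windows held each. The core lay in 3 of the 6 windows, against 19.5% of all windows. The 3 windows are shown 5′ to 3′ on the gene's strand, with the matches to the core and to GAGGAA in capitals. Cbr2 is at chr11:120731972-120732271, the downstream Folr2 start at chr7:101845282-101845581 and the upstream Folr2 start at chr7:101857141-101857440, all on the minus strand.
Cbr2: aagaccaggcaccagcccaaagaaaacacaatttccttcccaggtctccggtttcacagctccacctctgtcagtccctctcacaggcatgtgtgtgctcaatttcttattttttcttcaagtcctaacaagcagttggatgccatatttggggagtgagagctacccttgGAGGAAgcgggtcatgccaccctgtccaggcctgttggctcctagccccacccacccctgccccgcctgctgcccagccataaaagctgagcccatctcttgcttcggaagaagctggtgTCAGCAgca
Folr2, downstream start: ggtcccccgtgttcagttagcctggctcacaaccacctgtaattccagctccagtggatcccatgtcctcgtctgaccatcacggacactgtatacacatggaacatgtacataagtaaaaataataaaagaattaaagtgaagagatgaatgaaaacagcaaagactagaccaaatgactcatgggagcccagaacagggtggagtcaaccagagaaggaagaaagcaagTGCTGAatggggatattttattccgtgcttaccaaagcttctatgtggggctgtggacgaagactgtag
Folr2, upstream start: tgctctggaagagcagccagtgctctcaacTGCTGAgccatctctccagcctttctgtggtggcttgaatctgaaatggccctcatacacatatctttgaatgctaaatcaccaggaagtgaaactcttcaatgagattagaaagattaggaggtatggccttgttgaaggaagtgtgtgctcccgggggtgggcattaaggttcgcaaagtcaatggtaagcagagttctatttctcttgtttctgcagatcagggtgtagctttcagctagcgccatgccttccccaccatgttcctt
The match begins at base -19 and at base -220 from the start in the Folr2 windows, and in the Cbr2 window it reads TCAGCA, the core on the other strand, from base 42. GAGGAA, the core of many sites of PU.1 (a master transcription factor of macrophages), lay in 28.3% of all windows. Among the members it was in the Cbr2 window and in both F13a1 windows. These matches are letters in a window and show no binding.

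Each array level below is the log2 processed signal minus the array's 75th percentile, so 0 is the signal of a spot at that percentile. A level is compared between arrays for 1 probe and never between probes. The ± beside a difference is the scanner software's error, and leaves out the spread between animals and between arrays, which 1 array per group cannot show. Of 41174 probes, between 45.1% and 49.1% were well above background on an array. No spot of the 6 genes was saturated or an outlier.

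On the brightest probe of each gene, all 6 genes lay at least 2-fold above the control at 70 nmol, by 2.22-fold to 3.72-fold. At 35 nmol none of these probes differed 2-fold from the control in either direction. The dimmer of 2 Lyve1 probes differed by -0.15 at 70 nmol. At 35 nmol it lay at least 2.06-fold below the control, by a bound that leaves out the scanner error. At 70 nmol the mean over both Lyve1 probes gave 0.76, and another background correction gave 0.67 for Cd163. Of 12541 genes measured on both arrays, 1.63% were at least 2-fold higher at 70 nmol, and the choice of the 6 genes used this contrast. The members' median difference at 70 nmol was 1.45, beside 0.04 for all measured genes. Scaling on spike-in RNA, which moved the median of all genes to -0.30, left Cd163, Maf and F13a1 below 2-fold at 0.81, 0.90 and 0.90. Without spike-in scaling, the members' median difference at 35 nmol was -0.09, beside 0.04 for all measured genes. Of 12730 genes, 1.12% were at least 2-fold higher there, also without this scaling.

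Among the receptors, Folr2 had a level of 2.27 in the control, 2.16 at 35 nmol and 4.05 at 70 nmol. Its spot gave a processed signal of 1300 in the control, 920 at 35 nmol and 3550 at 70 nmol before scaling. The 70 nmol array was high and the other arrays lay within 0.11 of each other. Folr2 was 3.43-fold higher at 70 nmol than in the control, a difference of 1.78 ± 0.20. Its 60-base probe lies on chromosome 7 from 101714078 to 101714137 on the minus strand, in the positions that the array design gives on build mm8.

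Lyve1 was read by 2 probes that did not behave alike. The brighter probe had levels of -1.47 in the control, -1.46 at 35 nmol and 0.20 at 70 nmol. It was high at 70 nmol only, by 1.67 ± 0.22 or 3.18-fold over the control, and at 35 nmol it differed by 0.01 ± 0.23. The dimmer probe had levels of -2.36 in the control, -3.43 at 35 nmol and -2.51 at 70 nmol, and so was lowest at 35 nmol and about equal on the other arrays. It differed by -0.15 ± 0.29 at 70 nmol from the control. At 35 nmol it was not well above background, and the bound put its level there at least 2.06-fold below the control. That bound leaves out the scanner error, and the difference as read was -1.08 ± 0.38. On the 70 nmol array this probe lay 0.75 above the lowest level well above background, and on the control array 1.29 above it. Both probes lie on the minus strand of chromosome 7 in mm8, the brighter from 110641838 to 110641897 and the dimmer from 110643335 to 110643393, with 1437 bases between them.

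Cd163 was dim on every array. Its levels were -2.94 in the control, -3.05 at 35 nmol and -1.79 at 70 nmol, where the lowest levels well above background were -3.65, -3.40 and -3.26 in the same order. The 70 nmol array was again high and the others close to each other. Cd163 was 2.22-fold higher at 70 nmol than in the control, by 1.15 ± 0.29, and differed by -0.11 ± 0.36 at 35 nmol. With another background correction (normexp) the difference at 70 nmol was 0.67, below 2-fold. The probe lies on chromosome 6 from 124296085 to 124296144 on the plus strand in mm8.

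F13a1 had levels of 2.96 in the control, 2.88 at 35 nmol and 4.20 at 70 nmol, with signals of 2096, 1516 and 3942 before scaling. It was 2.36-fold higher at 70 nmol than in the control, by 1.24 ± 0.20, and differed by -0.08 ± 0.20 at 35 nmol. Its probe lies on chromosome 13 from 36874811 to 36874870, minus strand, in mm8.

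The enzyme gene Cbr2 was again high at 70 nmol. Its levels were 3.26 in the control, 3.01 at 35 nmol and 5.15 at 70 nmol, from signals of 2577, 1663 and 7638 before scaling. Cbr2 was 3.72-fold higher at 70 nmol than in the control, by 1.90 ± 0.20, and lower at 35 nmol by a difference of -0.25 ± 0.20. Between the doses it was 4.41-fold higher at 70 nmol. The probe lies on chromosome 11 from 120545601 to 120545660, minus strand, in mm8.

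Maf was read by 4 probes, all highest at 70 nmol. The brightest had levels of 3.17 in the control, 3.44 at 35 nmol and 4.40 at 70 nmol, and the next 2.51, 2.64 and 3.61. These bright probes were 2.35-fold and 2.14-fold higher at 70 nmol than in the control, by 1.23 ± 0.20 and 1.10 ± 0.20. The dim probes differed by 0.81 ± 0.23 and 1.02 ± 0.25 at 70 nmol. At 35 nmol the 4 probes gave 0.27, 0.12, -0.19 and 0.53, so the dim probes lay at the ends of the range there. The fourth probe, which the file assigns to Maf through another cDNA, lies at 118569245 to 118569303 on chromosome 8 (minus strand, mm8). The other 3 lie between 118589813 and 118593743.

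**Figure D1:**
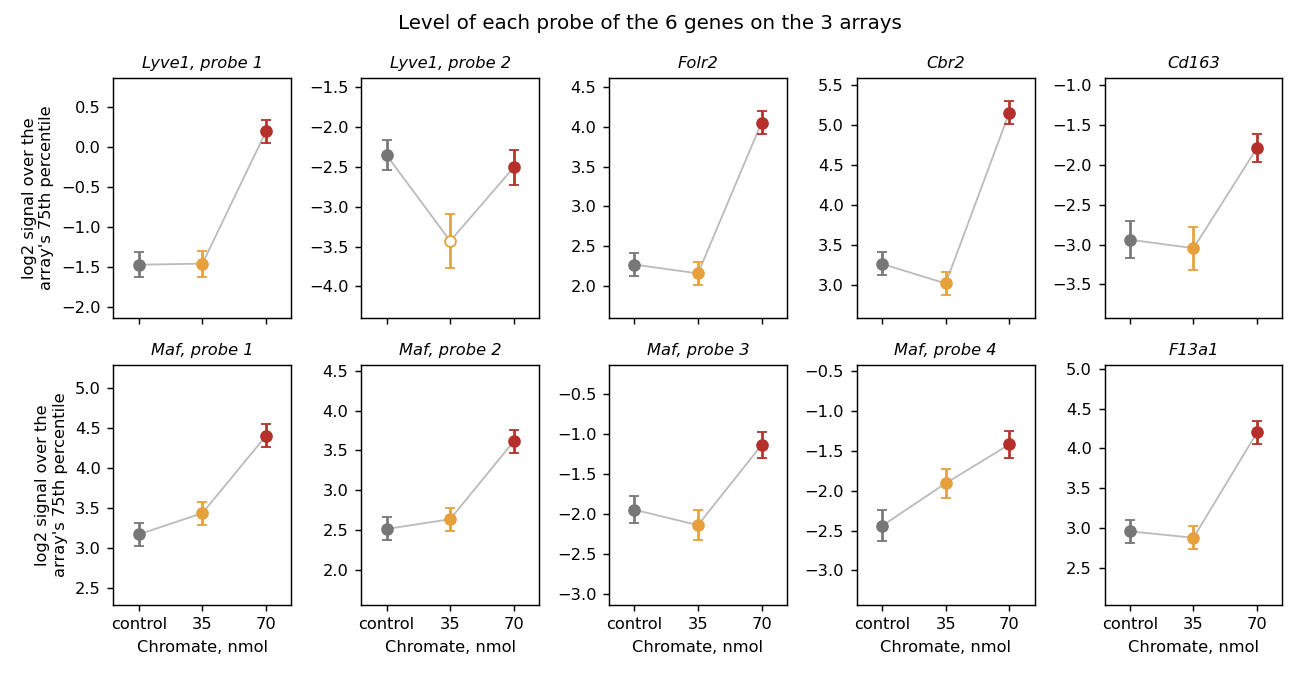
Level of each of the 10 probes on the control, 35 nmol and 70 nmol arrays, as log2 signal over the array's 75th percentile (y axes of equal length, set per probe). Bars are the scanner software's error, an open point was not well above background, and 9 of the 10 probes are highest at 70 nmol, the exception being the dimmer Lyve1 probe.

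The 6 genes fell into an upper and a lower trio at 70 nmol. Cbr2, Folr2 and Lyve1 differed from the control by 1.90, 1.78 and 1.67, and F13a1, Maf and Cd163 by 1.24, 1.23 and 1.15. Within each trio, neighbours differed by at most 0.12, less than the scanner error of such a gap. Between the trios, from Lyve1 to F13a1, the gap was 0.43 with a scanner error of 0.30. With normexp Lyve1 differed by 1.17 and lay with the lower trio. With the mean over a gene's probes Lyve1 gave 0.76, the lowest of the 6 genes. Among all 12541 measured genes the upper trio ranked 24th, 31st and 39th from the highest difference and the lower trio 126th, 127th and 151st. The 70 nmol array was also compared with the 35 nmol array, where 0.92% of 12387 genes passed 2-fold upward and 0.718% downward. All but Maf were at least 2-fold higher there, by 1.26 (Cd163) to 2.14 (Cbr2). Cbr2 and Folr2 differed from each other there by 0.25, within the scanner error of 0.29. Maf differed by 0.97 ± 0.20. With normexp Cd163 gave 0.54, below 2-fold, and with spike-in scaling Maf gave 1.05, above it. Of 12326 genes measured on all 3 arrays, 76 (0.617%) were at least 2-fold higher at 70 nmol than on each of the other arrays, and 5 of the 6 genes are among them. The comparisons share arrays and are not independent of each other.

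**Figure D2:**
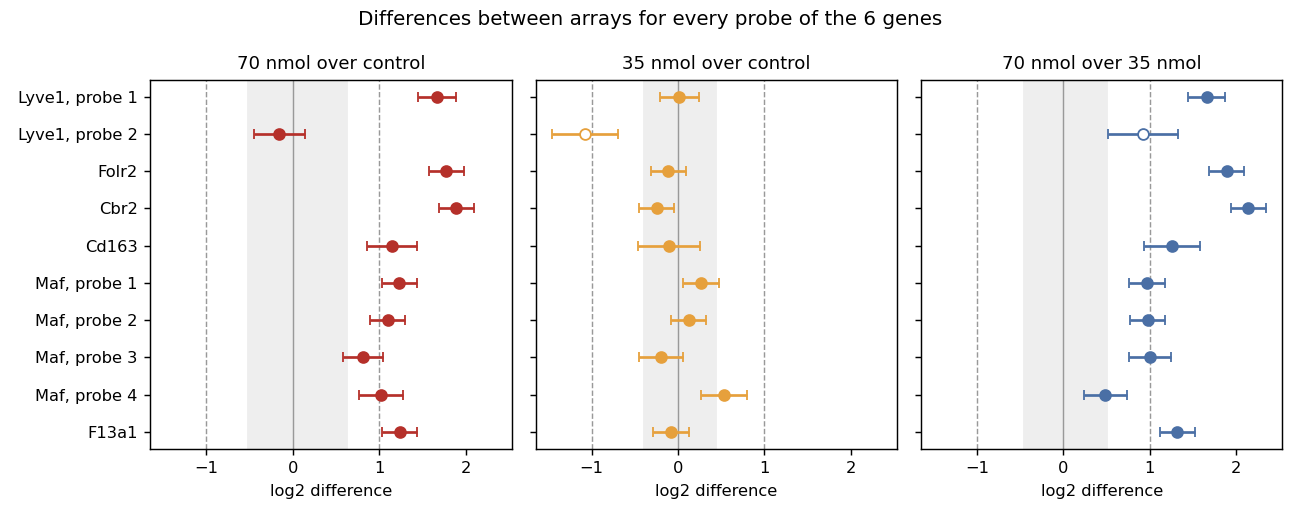
Log2 difference of each probe for 70 nmol over control, 35 nmol over control and 70 nmol over 35 nmol, with the scanner error as bars and open points where the probe was not well above background on both arrays. Grey bands hold the 5th to 95th percentile of all measured genes (-0.51 to 0.62 at 70 nmol over control), dashed lines mark 2-fold, and in the left panel 9 probes lie to the right of the band and the dimmer Lyve1 probe inside it.

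Other genes linked with LYVE1+ FOLR2+ macrophages lay on both sides of the control. Of 27 such genes measured at 70 nmol and in the control, 4 were at least 2-fold higher, 4 at least 2-fold lower and 19 within 2-fold, with a median of 0.24. Over all genes, 1.63% passed 2-fold upward and 1.08% downward. The higher genes were Ccl8, a monocyte-attracting chemokine, at 2.58, Gas6, a ligand of the phagocytic receptors Axl and Mertk, at 1.93, the mannose receptor Mrc1 at 1.59, and the scavenger receptor Stab1 at 1.14, though another Stab1 probe gave 0.39. The lower genes were Cd209b, a C-type lectin, at -1.45, the ficolin Fcna at -1.22, the eosinophil-attracting chemokine Ccl24 at -1.17, and the scavenger receptor Colec12 at -1.09. Timd4, the phosphatidylserine receptor that often marks the same long-lived cells, differed by -0.38, and Igf1 by -0.31. Timd4 is also among the markers of large peritoneal macrophages described below. At 35 nmol none of 28 measured genes differed 2-fold in either direction. There 0.299% of all genes were at least 2-fold lower.

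Next to Maf, the small MAF proteins Mafg and Mafk differed by 0.56 and 0.09 at 70 nmol. Maff, another small MAF, had a level of -2.00 at 70 nmol and -2.51 at 35 nmol and was not well above background in the control, so it was at least 3.14-fold higher at 70 nmol and at least 2.20-fold higher at 35 nmol. Of 7 genes measured on each of these arrays among MAF family members and their partner factors of the BACH and NRF families, Maf aside, none differed 2-fold at either dose, and their median was 0.16 at 70 nmol. Among 12 measured genes known to depend on MAF factors in macrophages, the members aside, 3 were at least 2-fold higher at 70 nmol and none lower, with a median of 0.29. They were Ccl8 and Mrc1, given above, and Gpnmb at 1.10, which was dim in the control (-3.37). The complement genes C1qa, C1qb and C1qc differed by -0.11, 0.02 and -0.06. None of these 12 genes differed 2-fold at 35 nmol. The list was written with earlier results of these arrays known.

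The partners of each receptor and enzyme were set beside it. For Folr2, none of 15 other folate receptor and folate handling genes measured on both arrays differed 2-fold at either dose. Ftcd, an enzyme of histidine breakdown that uses folate, was well above background at 35 nmol only and there at least 3.66-fold higher than in the control. Folr1, the alpha form of the receptor, differed by 0.30 at 70 nmol, the reduced folate carrier Slc19a1 by -0.07, the proton-coupled carrier Slc46a1 by 0.05, and the mitochondrial enzyme Mthfd2 by 0.76. For Cd163, none of 11 other genes of haemoglobin and heme uptake measured on both arrays differed 2-fold at 70 nmol, with a median of 0.21. The heme carrier hemopexin, Hpx, fell short of well above background at 70 nmol, which puts it below the control by at least 2.89-fold. Haptoglobin, Hp, differed by -0.03, the heme oxygenase Hmox1 by 0.95, the heme-hemopexin receptor Lrp1 by 0.53, and the related scavenger receptor Cd163l1 by -0.52. At 35 nmol, Hpx and the iron exporter Slc40a1 were 1.49 and 1.22 higher than in the control. Slc40a1 was dim in the control, at -3.34 beside a lowest level well above background of -3.65. At 70 nmol it was also at -3.34 but not well above background, so no difference is given. Hpx was highest at 35 nmol and lowest at 70 nmol. The hepatocyte marker Alb had the same order, at 3.19 in the control, 4.75 at 35 nmol and -2.90 at 70 nmol. Ftcd was, like Alb, highest at 35 nmol. The cells that Hpx and Ftcd came from were not tested.

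For Lyve1, 7 other hyaluronan genes were measured at 70 nmol and in the control, of which 2, Stab1 and Vcan, lay at least 2-fold higher and 1 lower. Cd44, the main hyaluronan receptor of leukocytes, differed by 0.55, the hyaluronan-binding proteoglycan Vcan by 1.02 and the liver protein Itih3 by -1.94. At 35 nmol, 2 of 9 other hyaluronan genes measured were at least 2-fold higher than in the control, Vcan at 1.29 and Stab2 at 1.09. The hyaluronan synthases Has1, Has2 and Has3 were not well above background on any array. For F13a1, 2 of 15 other transglutaminase, coagulation and fibrinolysis genes measured on both arrays were at least 2-fold higher at 70 nmol, the plasminogen activator Plat at 1.34 and the protein C receptor Procr at 1.11. Procr was also 1.41 higher than in the control at 35 nmol, where Plat differed by 0.13. Prothrombin, F2, and protein C, Proc, fell short of well above background at 70 nmol, which puts them below the control by at least 3.62-fold and 2.59-fold, while at 35 nmol they were 1.81 and 1.48 higher than in the control. Their order over the arrays was also that of the hepatocyte marker Alb, as was the order of Itih3. The cells that F2, Proc and Itih3 came from were not tested. Tgm2, the tissue transglutaminase, differed by 0.50, Tgm1 by -0.01, and F13b, which encodes the carrier subunit of factor XIII, was not well above background on any array. For Cbr2, 1 of 16 other carbonyl reductase genes was at least 2-fold higher, the aldo-keto reductase Akr1b8 at 1.60. Its relative Akr1b7 was well above background at 35 nmol only and there at least 10.2-fold higher than in the control. Alb was also highest at 35 nmol, and the cells that Akr1b7 came from were not tested. The other carbonyl reductases Cbr1, Cbr3 and Cbr4 differed by -0.14, 0.17 and -0.08.

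**Figure D3:**
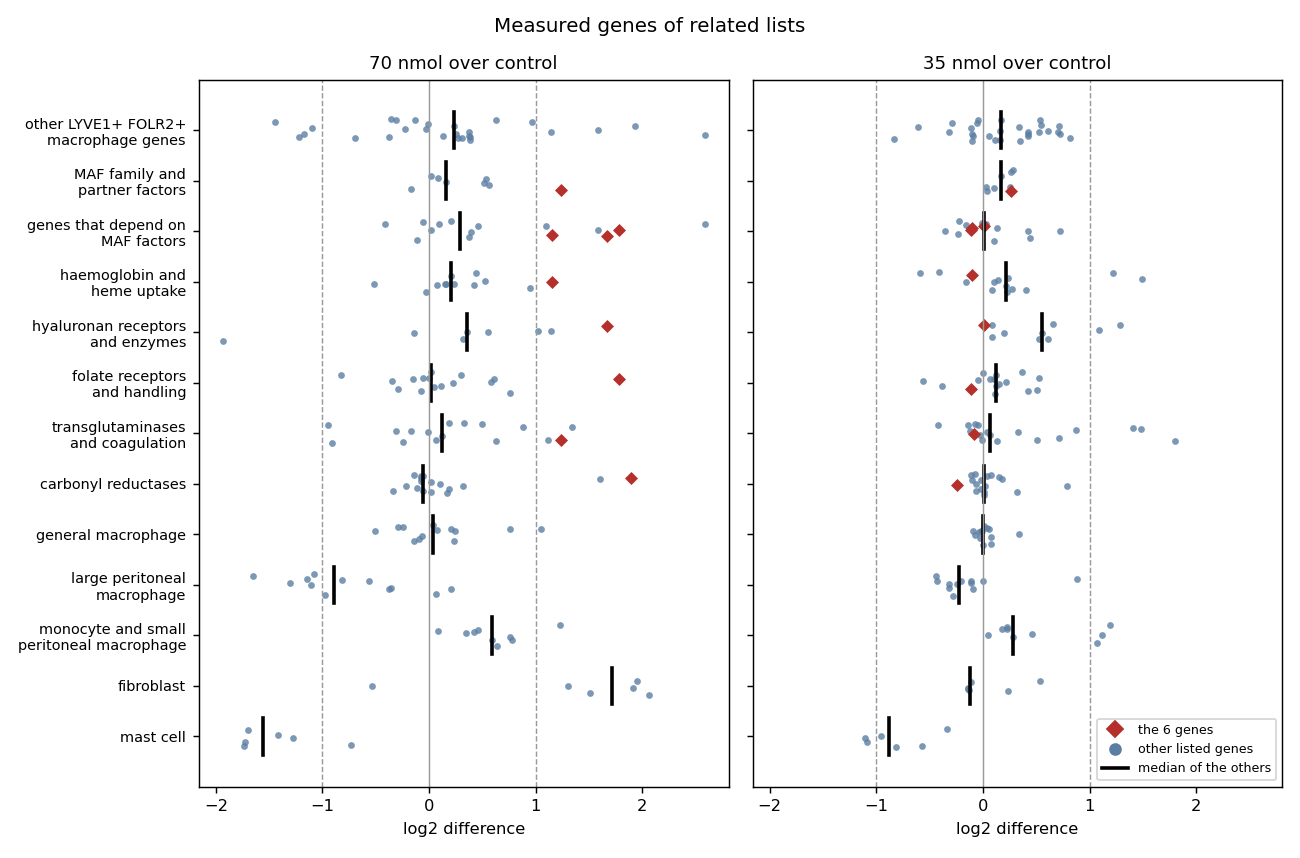
Log2 difference of every measured gene of 13 lists, at 70 nmol over control (left) and 35 nmol over control (right), with the 6 genes as red diamonds, other genes as blue points and the median of the others as a black bar. Dashed lines mark 2-fold, and in the left panel the red diamonds lie between 1.15 and 1.90, and the median of each pathway list without them lies between -0.06 and 0.35.

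The labelled cell type was checked on 15 general macrophage markers, and all 15 were well above background on each array. Their median difference, over 13 that were not saturated, was 0.04 at 70 nmol and 0.00 at 35 nmol against the control. Centring on these markers gave 1.11 to 1.86 for the 6 genes at 70 nmol. Markers of large peritoneal macrophages, the resident cells of the cavity, lay lower at 70 nmol, with 5 of 12 at least 2-fold lower and a median of -0.90. Of 9 markers of monocytes and small peritoneal macrophages, 1 (Retnla) was at least 2-fold higher at 70 nmol and the median was 0.59. At 35 nmol, 3 of them (Retnla, Fcrls and Chil3) were, and the median was 0.28. In RNA from a whole cell suspension, more cells of a type and more RNA per cell cannot be told apart.

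Markers of cells that also express a member were checked. Of 5 lymphatic endothelial markers, none was well above background at 70 nmol or 35 nmol, and only Prox1 was in the control. The platelet genes Itga2b, Gp1ba, Gp1bb, Gp9 and Ppbp, of interest because platelets hold F13A1, were not well above background on any array. Of the other 3 platelet markers, Pf4, which is also a gene of the macrophage list, had levels of 6.22 in the control, 6.39 at 35 nmol and 6.47 at 70 nmol. Gp6 was well above background at 70 nmol only, and Treml1 at 35 and 70 nmol. Of 4 airway club cell markers, of interest for Cbr2, none was well above background at 70 nmol, while Cyp2f2 was at 35 nmol and in the control, and Scgb3a2 in the control. Fibroblast markers moved with the 6 genes. At 70 nmol, 5 of 6 measured were at least 2-fold higher than in the control, with a median of 1.71, and Lum, Pdgfra and Col6a1 were well above background at 70 nmol only. Pi16, the other measured fibroblast marker, differed by -0.53 at 70 nmol. A sum of signals gives the brightest probes most weight. Fibroblast markers summed, in multiples of the 75th percentile, to 24.5 in the control, 24.5 at 35 nmol and 45.2 at 70 nmol. Mast cell markers summed to 24.4, 13.5 and 7.56 in the same order, and hepatocyte markers to 20.9, 64.6 and 0.373. Red cell markers summed to 67.1 in the control, 11.7 at 35 nmol and 35.3 at 70 nmol. The 6 B cell markers all lay below the control at 70 nmol, with a median difference of -0.34, and the T cell median was 0.04. B cell and T cell markers, 6 and 5, were all well above background on each array. Of 8 dendritic cell markers 3 were, with sums of 3.36, 2.89 and 3.51 in the same order, and neutrophil markers summed to 6.57, 3.25 and 11.8. Of the neutrophil markers at 70 nmol, S100a9 differed from the control by 1.02, S100a8 by 0.46 and Cxcr2 by -1.39. Ngp, Camp and Ltf were not well above background on any array. Mesothelial markers summed to 0.878, 0.978 and 1.34, and of 7 blood endothelial markers only Pecam1 was above background. Of the Kupffer cell markers, Nr1h3 was 1.03 higher at 70 nmol than in the control, and Clec4f was well above background at 35 nmol only. The part of these cells in the levels of the 6 genes was not tested.

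Likeness to the mean profile of the 6 genes was measured as the Euclidean distance between centred levels over the 3 arrays, among 5503 other genes of at least median level. The 8 nearest were Col1a2 (a collagen chain) at 0.08, Ms4a4c at 0.13, Hal (histidine ammonia-lyase) at 0.15, Igh at 0.17, Isg15 (an interferon-induced ubiquitin-like protein) at 0.28, Jchain (the joining chain of secreted antibodies) at 0.36, Oas3 at 0.38 and Aoah (which deacylates LPS) at 0.39. The members' own distances were 0.13 (Lyve1) to 0.43 (Cbr2). Other probes of 4 of these genes were read at 70 nmol, and those of Jchain gave like differences, 1.52 beside 1.44. Another Oas3 probe gave 0.58 beside 1.00, another Aoah probe 0.40 beside 1.29, and 5 other Igh probes gave 0.09 to 2.03 beside 1.65. With 3 arrays, many genes can share such a profile.

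**Figure D4:**
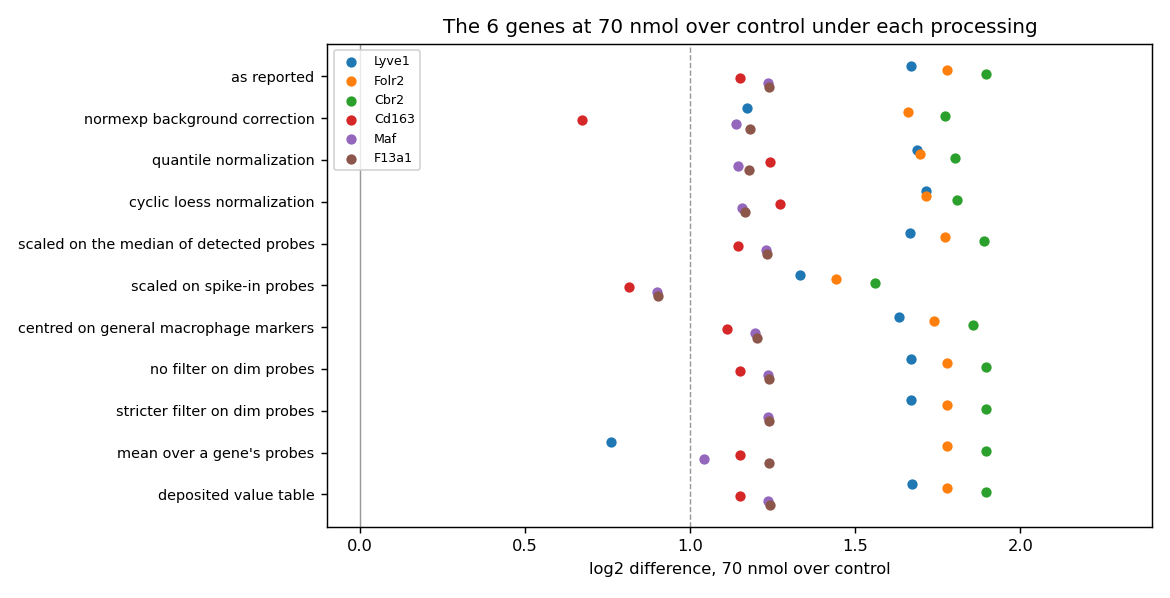
Log2 difference of the 6 genes at 70 nmol over control (x axis) under the reported processing and 10 alternatives (rows). All points lie above 0, and the points left of the dashed 2-fold line are Cd163 with normexp, Cd163, Maf and F13a1 with spike-in scaling, and Lyve1 with the mean over its probes, while Cd163 has no point under the stricter filter on dim probes.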

How the data were processed

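Expression was measured on 3 Agilent 1-colour whole-genome mouse arrays, 1 per group. Per the file headers, spot intensities were taken by the authors from scans with Agilent Feature Extraction 10.5.1.1, after subtraction of background and spatial trends, and probe positions are on build mm8. Values in the authors' deposited table are log2, and they equalled the log2 processed signal minus 1 constant per array within 0.01 for 99.9% to 99.95% of detected probes. The medians of its columns were -3.60, -3.74 and -3.78 for the control, 35 nmol and 70 nmol, so scale and direction are known and genes were not centred. Calls of well above background are the scanner software's (a multiple of 13 in the headers).

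Here the log2 processed signal was scaled on each array's 75th percentile over 43379 spots that are not controls. Outlier spots were left out and spots of a probe averaged. Probes were named through their accession in RefSeq (GRCm38.p6, 24375 probes), otherwise by symbol or unique synonym, and 8072 have only the file's name. The brightest probe above background on at least 1 array stood for its gene. A comparison used it if it was unsaturated and well above background on both arrays. For a probe below background on an array, the fold is a bound, taken against the lowest signal well above background or the dim probe's own, whichever is higher. Such a bound leaves out the scanner error.

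Without a second array in any group nothing could be tested, and folds of at least 2 were counted. The arrays are on 1 slide, and their position on it and the group cannot be told apart. The members, the 25 gene lists (287 of 292 entries on the array) and the rules were chosen with earlier results of these data known. The rule named all member probes, 8 genes of like profile and up to 3 genes per list with the largest difference from the control, and a few further genes were named after their values were seen. Some genes the rule takes are not reported here. The steps were first tested on data simulated from the control array with scanner error only, which hold no spread between animals or arrays. There 47 of 50 genes simulated at 2.5-fold and 2 of 50 at 1.5-fold passed 2-fold. Tools were Python 3.11.15 (numpy 2.4.6, pandas 2.3.3, matplotlib 3.10.9) and, for alternatives, R 4.3.3 with limma 3.58.1.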

Additional observations from a re-analysis of the deposited data

Results flagged for a closer look

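Cbr2 differed from the control in opposite directions at the doses, by 1.90 at 70 nmol and by -0.25 at 35 nmol. The value at 35 nmol lay inside the range from the 5th to the 95th percentile of all measured genes, -0.40 to 0.43, and Folr2, Cd163 and F13a1 also lay below the control there. With 1 array per dose, neither the direction at 35 nmol nor the difference between the doses was tested.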

How the results depend on the processing

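With 1 array per group no replicate could be left out and no paired analysis was possible because no group has a second sample. All 6 genes stayed above the control at 70 nmol under each of 10 alternatives that give a difference, except that Cd163 was not measured under the stricter filter on dim probes. Several of these could hardly move the differences. The filters only choose probes. The deposited table, the median of detected probes and the centring on macrophage markers shift all genes by the same small amount. The members' median of 1.45 was 1.18 with normexp, 1.12 with spike-in scaling (4 of 10 spike-in probes), 1.19 with the mean over a gene's probes and 1.67 with the stricter filter. Of 6 members at least 2-fold higher, 3 remained so with spike-in scaling and 3 passed 3-fold. Spike-in scaling moved the median of all genes to -0.30 at 70 nmol and -0.38 at 35 nmol, and the members' median at 35 nmol to -0.51. Under it 20.4% of the genes past 2-fold at 70 nmol were higher, against 60%. Without a filter on dim probes that share was 41.0%, and it was 43.9% at 35 nmol against 79.0%. For 70 over 35 nmol, the members' median was 1.23 with normexp, and 3 members passed under the stricter filter (4 measured) and at 3-fold. Lyve1 at 70 nmol gave 0.76 with the mean over its probes and 1.17 with normexp.

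Counts over all genes moved more. Against 204 higher and 136 lower at 70 nmol, there were 80 and 48 with normexp, 92 and 360 with spike-in scaling, 1130 and 1624 without a filter on dim probes, 109 and 50 with the stricter filter, 696 and 480 at 1.5-fold, and 49 and 22 at 3-fold. Against 143 higher and 38 lower at 35 nmol, there were 55 and 10 with normexp, 72 and 244 with spike-in scaling, 1095 and 1397 without a filter, 50 and 13 with the stricter filter, 377 and 245 at 1.5-fold, and 51 and 12 at 3-fold, while averaging the probes of a gene gave 92 lower. Against 114 higher and 89 lower at 70 over 35 nmol, there were 39 and 20 with normexp, 1066 and 1161 without a filter, 52 and 23 with the stricter filter, 454 and 353 at 1.5-fold, and 21 and 19 at 3-fold. The cause of these moves was not tested. Signal over background limits Cd163 and the dimmer Lyve1 probe most.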
